A study of Mus musculus with 2 samples.

Results

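The genes Ctgf, Cyr61, Nov, Wisp1 and Wisp2 encode secreted proteins of the CCN family, and they were chosen by name as 5 of the 27998 genes in the count tables. They were followed across 25 cell type labels in tibialis anterior, a muscle at the front of the lower leg, after notexin, a snake venom toxin that destroys muscle fibers. The series held 2 single-cell libraries (10x Chromium, v3 chemistry), 1 from day 2 and 1 from day 7 after injury. An uninjured library was not analysed here. Both came from dissociated whole muscle of C57Bl/6 mice (C57BL/6J in the deposited annotation), 1 mouse per library, so no difference between the days has a replicate check and mouse, library and day cannot be told apart. The labels give female mice of 7 months, whereas the deposited cell annotation gives male mice of 4 months at day 2 and 7 months at day 7. Summed over 4 Y-linked genes the kept cells held 5435 UMIs at day 2 and 4165 at day 7, against 4 UMIs and 1 UMI of Xist, which goes against the female label in both libraries.

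CCN proteins are matricellular, meaning that they sit in the extracellular matrix and change how cells read it instead of building it. They bind integrins, heparan sulfate proteoglycans and growth factors, and Ctgf and Cyr61 are widely used readouts of the transcriptional coactivators YAP and TAZ, which work with TEAD factors and respond to stretch, stiffness and serum. In muscle, Ctgf is best known from fibrosis, and Wisp1 as a signal that FAPs (fibro-adipogenic progenitors, which lie between the fibers and make matrix) send to muscle stem cells (MuSCs).

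The limits on cells left 3178 at day 2 and 3196 at day 7, with medians of 9058.5 and 6583 unique molecular identifiers (UMIs) per cell, and 1 kept barcode was shared by both libraries. Levels are UMIs summed over the cells of a label and scaled to 1000000 UMIs of those cells (CPM). Intervals in parentheses are 95% intervals that cover counting error only. Ctgf (Ccn2 in current nomenclature, chromosome 10, 24595442 to 24598683) had 1172 UMIs in kept cells at day 2 and 1698 at day 7. Cyr61 (Ccn1, chromosome 3, 145646976 to 145649981) had 6997 and 6820. Nov (Ccn3, chromosome 15, 54745702 to 54754039) had 55 and 743, and Wisp1 (Ccn4, chromosome 15, 66891320 to 66923201) had 46 and 510. Wisp2 (Ccn5, chromosome 2, 163820861 to 163833146) had 101 and 538. All but Cyr61 thus had more UMIs at day 7. Kept cells held 34026345 UMIs at day 2 and fewer, 27620535, at day 7. Scaled to these totals, Cyr61 was higher at day 7 too, with 206 CPM (201 to 211) at day 2 and 247 (241 to 253) at day 7. Spans are those of whole genes in GRCm38 (GENCODE vM21). Wisp3, the remaining family gene, had 4 and 11 UMIs and is not described further.

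In both libraries Ctgf and Cyr61 were found in stromal and vascular cells, and Nov, Wisp1 and Wisp2 mainly in stromal cells. Myogenic cells held Cyr61, Wisp1 and Wisp2 at day 7, and the family was close to 0 in most immune cells. Ctgf stood at 0.425 CPM (0.171 to 0.875) in monocytes and macrophages at day 2 and, at day 7, at 0.931 (0.374 to 1.92). Nov, Wisp1 and Wisp2 together had 6 UMIs in 1292 monocytes and macrophages at day 2, all of them from Wisp2. FAPs made up 6.77% of kept cells and 15.1% of their UMIs at day 2, against 25.2% and 29.5% at day 7. They held 42.2% (39.3 to 45.0) of all Ctgf UMIs at day 2 and 79.4% at day 7. For Cyr61 the share held by FAPs went from 28.8% (27.8 to 29.9) to 64.2%, while that of smooth muscle cells went from 40.5% (39.3 to 41.6) to 10.5%. Such shares mix cell number and level per cell, so levels within cell types are given below.

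**Figure D1:**
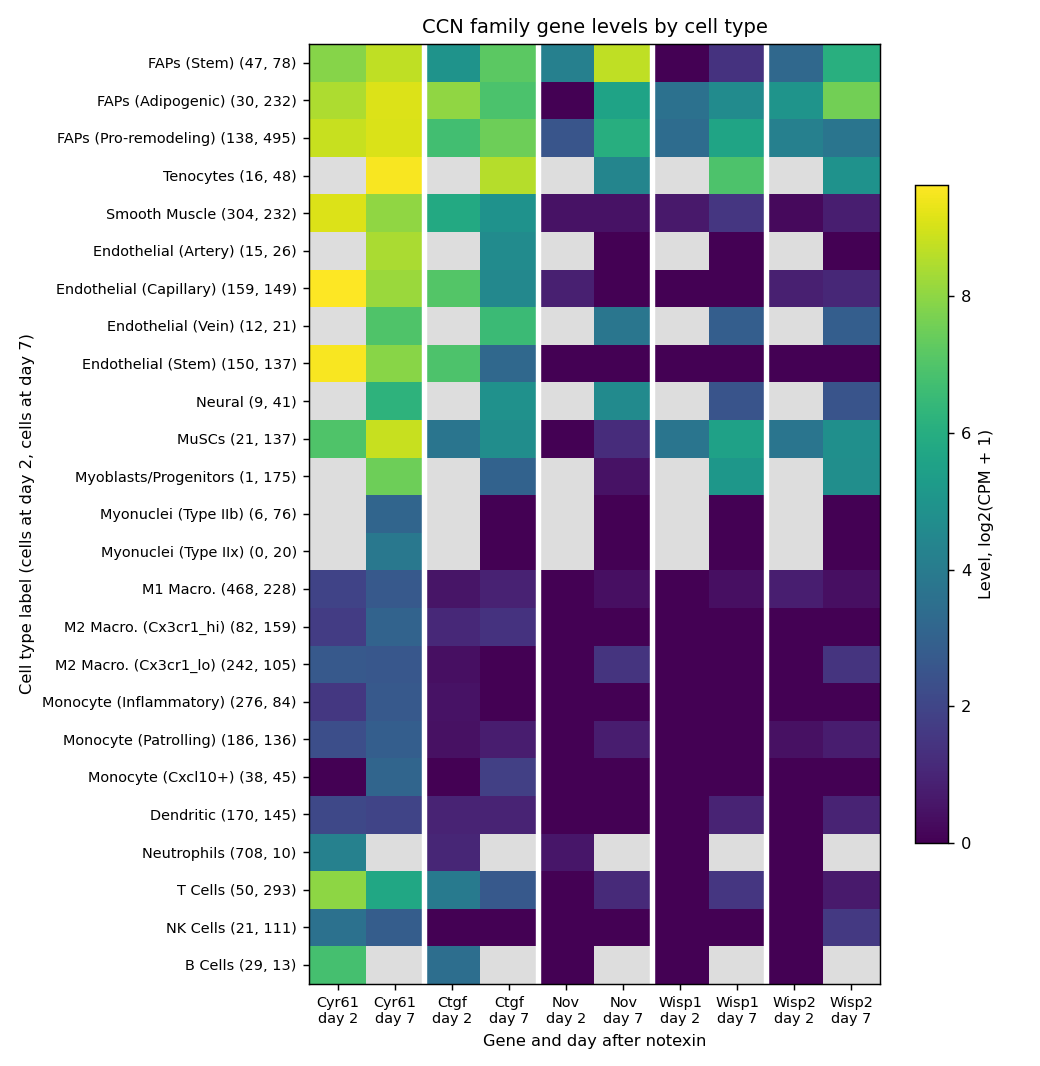
Levels of the 5 genes as log2(CPM + 1) for 25 cell type labels (rows, with the cells at day 2 and at day 7) and each day (columns), with labels under 20 cells in grey. Cyr61 and Ctgf cover the stromal and vascular labels, and Cyr61 also MuSCs, myoblasts and progenitors at day 7, whereas Nov and Wisp2 are highest at day 7 in FAP labels and Wisp1 in tenocytes, with Wisp1 and Wisp2 also in MuSCs, myoblasts and progenitors.

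Cyr61 is a secreted integrin ligand and an immediate early gene. At day 2 its level was 794 CPM (745 to 845) in capillary endothelial cells, 738 (679 to 801) in cells labelled stem endothelial and 555 (534 to 575) in smooth muscle cells. In the same library it was 455 (433 to 478) in pro-remodeling FAPs, 345 (287 to 412) in adipogenic FAPs and 235 (209 to 263) in stem FAPs. Arterial and venous cells, with 15 and 12 cells, were at 758 (614 to 925) and 464 (387 to 552). Capillary, stem endothelial and smooth muscle cells thus lay above the FAP labels, with 1.74-fold (1.61 to 1.89) more in capillary cells than in pro-remodeling FAPs. At day 7 the order was turned. Cyr61 stood at 544 CPM (525 to 563) in pro-remodeling, 555 (520 to 592) in adipogenic and 422 (373 to 477) in stem FAPs, against 292 (257 to 330) in capillary cells, 239 (196 to 287) in stem endothelial cells and 263 (244 to 283) in smooth muscle cells. The 26 arterial cells were at 335 (253 to 436) and the 21 venous cells at 126 (77.2 to 195). Adipogenic and pro-remodeling FAPs did not differ beyond counting error, with a ratio of 1.02 (0.947 to 1.10). Tenocytes, the tendon cells, had the highest level among labels with at least 20 cells at day 7, at 748 CPM (670 to 832). At day 2 they were at 1045 (892 to 1217), from 16 cells only.

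The stretch before the Cyr61 start site is shown because the gene is a readout of YAP, TAZ and TEAD, beside those of Amotl2, the gene with the highest Pearson correlation to it over labels with at least 20 cells, and Ankrd1, another YAP and TAZ target. Each is the 250 bases before the start in RefSeq (GRCm38.p6), 5′ to 3′ on the strand of the gene, with the TEAD element (GGAATG or, read on the other strand, CATTCC) in capitals. In Cyr61 the cAMP response element core (TGACGT, here as ACGTCA) is in capitals as well.
Cyr61, chr3:145649986-145650235, minus strand: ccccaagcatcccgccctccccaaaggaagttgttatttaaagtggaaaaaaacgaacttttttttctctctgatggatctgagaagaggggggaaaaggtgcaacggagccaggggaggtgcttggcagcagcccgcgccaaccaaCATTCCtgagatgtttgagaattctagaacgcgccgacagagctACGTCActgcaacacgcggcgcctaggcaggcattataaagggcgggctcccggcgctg
Amotl2, chr9:102717554-102717803, plus strand: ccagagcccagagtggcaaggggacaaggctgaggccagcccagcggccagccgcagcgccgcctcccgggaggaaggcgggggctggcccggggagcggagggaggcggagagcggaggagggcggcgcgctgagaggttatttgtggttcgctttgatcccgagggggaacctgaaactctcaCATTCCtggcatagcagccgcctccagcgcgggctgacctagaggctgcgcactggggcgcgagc
Ankrd1, chr19:36119845-36120094, minus strand: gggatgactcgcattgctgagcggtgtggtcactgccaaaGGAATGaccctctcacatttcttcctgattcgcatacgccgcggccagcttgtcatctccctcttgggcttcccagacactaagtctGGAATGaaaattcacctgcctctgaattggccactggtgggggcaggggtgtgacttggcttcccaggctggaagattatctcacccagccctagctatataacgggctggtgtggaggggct

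In Cyr61 the TEAD element lay 103 to 98 bases and the cAMP response element core 59 to 54 bases before the start. Amotl2 had the TEAD element once, at 65 to 60 bases, and Ankrd1 had it at 210 to 205 and at 123 to 118 bases. Searched on both strands, the TEAD element was found in 12.6% and the cAMP response element core in 6.47% of 32851 promoter windows of this length. Of the YAP and TAZ target list, 14 of 20 genes had an entry and 6 of these held the TEAD element. The AP-1 site TGANTCA (6.75% of windows) and the CArG box (1.47%) were not found in the Cyr61 window. Such matches describe letters and do not show binding. Among the 5 genes only Cyr61 had an entry.

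Ctgf encodes the matrix protein that promotes fibrosis downstream of TGF-beta. Its level in tenocytes was 532 CPM (424 to 659) at day 2 and 376 (321 to 437) at day 7. The FAP labels did not share 1 direction. Stem FAPs went from 29.9 CPM (21.2 to 41.1) to 145 (117 to 179) and pro-remodeling FAPs from 103 (93.1 to 115) to 181 (170.1 to 192). Adipogenic FAPs went the other way, from 261 CPM (211 to 319.9) to 118 (102 to 136). The day 2 value of adipogenic FAPs rests on 93 UMIs in 30 cells, of which 1 cell held 35, and without that cell it was 169.97 CPM. In capillary endothelial cells Ctgf went from 131 CPM (112 to 153) to 21.4 (12.9 to 33.4), and in stem endothelial cells from 120.5 (97.5 to 147) to 8.60 (2.34 to 22.0). Of the 95 Ctgf UMIs in stem endothelial cells at day 2, 38 were in 1 cell, and without it the level was 73.4 CPM. Venous endothelial cells held 94.96 CPM (62.0 to 139) and 94.8 (53.1 to 156), so that at day 7 they stood 4.43-fold (2.09 to 9.20) above capillary cells.

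Set over whole classes, Ctgf and Cyr61 were higher at day 7 in FAPs and lower at day 7 in endothelial and smooth muscle cells. Not every endothelial label shared this for Ctgf. Venous cells had a like level on both days, as given above, and arterial cells held 3 Ctgf UMIs at day 2 and 4 at day 7. In FAPs (215 cells at day 2, 805 at day 7) Ctgf went from 96.2 CPM to 166, a log2 ratio of 0.78 (0.63 to 0.93). Cyr61 went from 393 to 537 CPM, a log2 ratio of 0.45 (0.38 to 0.53). The median log2 ratio over 11851 genes was 0.21 in FAPs, so the Cyr61 ratio lay at percentile 58.6 of these genes and that of Ctgf at percentile 69.0. Neither passed 2-fold. Scaling by the median of ratios instead of the total shifted all FAP log2 ratios by 0.23, which left 0.55 for Ctgf and 0.22 for Cyr61, and 0.01 in place of 0.26 for Cyr61 in pro-remodeling FAPs. The shift was 0.13 in endothelial and 0.18 in smooth muscle cells. In endothelial cells (336 and 333 cells) Ctgf went from 118 to 25.03 CPM, a log2 ratio of -2.24 (-2.74 to -1.77), and Cyr61 from 736 to 266, a log2 ratio of -1.47 (-1.62 to -1.32). Both were past 2-fold lower, against 9.5% of the 9616 genes with enough counts, and their ratios were at percentiles 1.45 and 4.51. Endothelial cells that held 0 UMIs of the smooth muscle markers (157 and 170 cells) went from 837 to 264 CPM for Cyr61 and from 138 to 23.9 for Ctgf. Myofiber markers went from 71.2 to 2157 CPM in capillary and from 50.7 to 626 in stem endothelial cells, while erythroid markers went from 3050.4 to 1073 and from 202 to 854. The part of these transcripts in the endothelial values was not tested. Free RNA, read from barcodes with 1 to 100 UMIs, held Cyr61 at 103 CPM (91.5 to 115) in the day 2 library and 239.6 (226 to 254) in the day 7 library, and Ctgf at 8.84 and 39.9 CPM. Beside these, the day 7 endothelial levels were 266 CPM (242 to 292) for Cyr61 and 25.03 (18.04 to 33.8) for Ctgf, and monocytes and macrophages of that library held Cyr61 at 5.98 CPM. The part of free RNA in the endothelial values was not tested. Nov, Wisp1 and Wisp2 had at most 4 UMIs each in endothelial cells of either day.

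Cells labelled smooth muscle had log2 ratios of -1.08 (-1.20 to -0.96) for Cyr61 and -0.97 (-1.34 to -0.60) for Ctgf. Cyr61 was past 2-fold, against 7.86% of 11039 genes that were as low, and Ctgf fell just short of it. No limits on cells (-0.97) and a mean over cells (-0.96) left Ctgf short of it as well. Ctgf passed with SoupX values (-1.02), stricter limits on cells (-1.07), median-of-ratios scaling (-1.14) and without the cell with the most Ctgf in each library (-1.05). The label also held endothelial transcripts. Of 304 cells at day 2, 302 held UMIs of the endothelial markers Pecam1, Cdh5, Kdr, Tie1 and Esam, as did 220 of 232 at day 7. Those markers summed to 3118 CPM at day 2 and 5056 at day 7, above the 2080 and 4169 CPM of the smooth muscle markers Acta2, Myh11, Rgs5, Cspg4 and Mylk. In the 12 cells at day 7 with smooth muscle markers and 0 endothelial marker UMIs, Cyr61 was at 262 CPM (146 to 431) and Ctgf at 139 (60.2 to 275). Myofiber markers went from 35.2 to 441 CPM in this label and erythroid markers from 1049 to 527. At day 7 the label held Cyr61 at 263 CPM (244 to 283) and Ctgf at 29.2 (23.1 to 36.3), beside 239.6 and 39.9 CPM in free RNA. The part of endothelial RNA in the smooth muscle values was not tested further, and the part of these other transcripts and of free RNA was not tested.

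**Figure D2:**
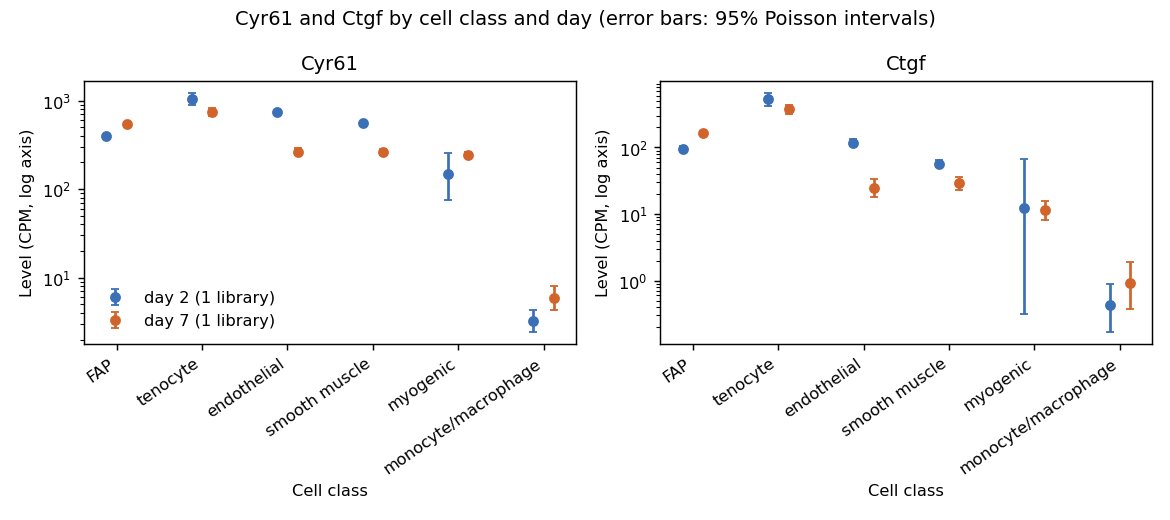
Level in CPM (log axis) of Cyr61 and Ctgf in 6 cell classes at day 2 and day 7, with 95% Poisson intervals and 1 library per day. Both genes are higher at day 7 in FAPs and lower at day 7 in endothelial and smooth muscle cells.

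Cyr61 was spread over FAPs in another way on the 2 days, when the mix of FAP labels differed too, with 47 of 215 cells labelled stem and 30 adipogenic at day 2 against 78 and 232 of 805 at day 7. The part of the mix in the spread was not tested. A UMI of Cyr61 was seen in 88.4% (83.3 to 92.3) of FAPs at day 2 and in 54.8% (51.3 to 58.3) at day 7, although the level was higher at day 7. Median depth was 24329 UMIs per FAP at day 2 and 8429 at day 7. After thinning every cell to 2000 UMIs, with 2 and 20 shallower cells left out, the shares were 47.9% and 37.1%. These shares go against the levels, so no order is read from them. Cells with at least 4 UMIs made up 4.23% of 213 FAPs at day 2 and 8.92% of 785 at day 7. The tenth of cells with the most Cyr61 held 40.2% of its UMIs at day 2 and 58.5% at day 7, and the variance over the mean was 1.5005 and 5.08. The share of monocytes and macrophages with a Cyr61 UMI, a background for free RNA, was 3.95% at day 2 and 5.42% at day 7, at median depths of 11696 and 8546.

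**Figure D3:**
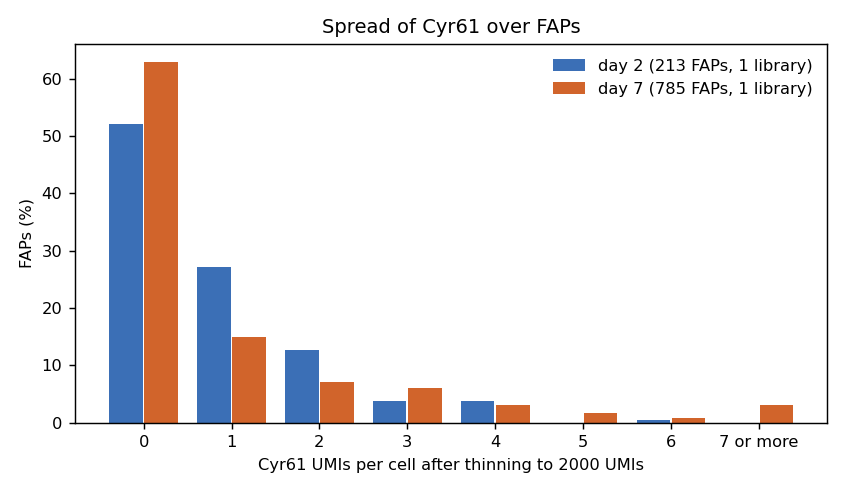
Percent of FAPs (y axis) by their Cyr61 UMIs (x axis) after thinning each cell to 2000 UMIs, for 213 FAPs at day 2 and 785 at day 7. Cells at 7 or more UMIs make up 3.06% at day 7 and 0% at day 2. Cells at 0 make up 62.9% and 52.1%, from which no order is read.

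Ctgf and Cyr61 were often in the same cells. At day 2, 83 of the 85 FAPs with a Ctgf UMI also had Cyr61 (97.6%), against 82.3% of the 130 FAPs without Ctgf. At day 7 it was 68.1% of 342 against 44.9% of 463. Cells with Ctgf were deeper, with medians of 11086.5 and 7382 UMIs at day 7. Thinned to 2000 UMIs the values were 60.9% of 23 cells against 47.9% of 190 at day 2. At day 7 they were 46.1% of 141 against 33.5% of 644. The thinned day 2 value rests on 14 cells with both genes. In endothelial cells the thinned values were 68.1% of 47 cells against 57.2% of 285 at day 2, and 44.4% of 9 cells against 26.1% of 314 at day 7.

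Nov, a CCN protein known from stem cell niches, had its highest level at day 7 in stem FAPs but was not limited to them. Stem FAPs went from 17.3 CPM (10.9 to 26.2) to 421 (371 to 475), with 4.60 (3.97 to 5.30) as their log2 ratio. Pro-remodeling FAPs went from 4.85 CPM (2.82 to 7.76) to 65.2 (58.8 to 72.0). Adipogenic FAPs had 0 UMIs among 30 cells at day 2. Their 46.8 CPM (36.9 to 58.4) at day 7 was at least 5.55-fold higher, against a floor of 3 UMIs. At day 7 stem FAPs thus stood 6.45-fold (5.49 to 7.58) above pro-remodeling and 8.998-fold (6.95 to 11.8) above adipogenic FAPs. A Nov UMI was found in 64 of 78 stem FAPs at day 7, 82.1% (71.7 to 89.8), and in 59.5% after thinning. Outside FAPs the largest sums were 8 UMIs in 9 neural cells at day 2 (121 CPM, 52.4 to 239) and 9 UMIs in tenocytes at day 7, the latter all from 1 cell. In monocytes and macrophages Nov was at 0.399 CPM at day 7, below the 14.9 CPM in free RNA.

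Over all FAPs, Nov went from 7.60 CPM to 88.2, a log2 ratio of 3.54 (3.07 to 4.04). Wisp1 went from 7.40 to 40.1 CPM, 2.44 (1.95 to 2.96), and Wisp2 from 16.2 to 52.8 CPM, 1.71 (1.36 to 2.06). With the mix of FAP labels given above, these class ratios hold the mix as well as the level per label, and for Wisp2 pro-remodeling FAPs had a log2 ratio of -0.49. These 3 of the 5 genes were past 2-fold higher at day 7, where 25.6% of 11851 genes were as high, and their ratios stood at percentiles 97.1, 92.6 and 85.9 of these genes. None of the 5 was past 2-fold lower, as 14% of the genes were. FAPs held 70.9% (57.1 to 82.4) of all Nov UMIs at day 2 and 96.8% (95.2 to 97.9) at day 7. Their part of the Wisp1 UMIs was 82.6% and then 64.1%, with 22.9% in myogenic cells and 10.6% in tenocytes at day 7. For Wisp2 it was 82.2% and then 79.9%, with 15.6% in myogenic cells at day 7.

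Wisp1, a Wnt-induced CCN protein, had its highest level in tenocytes and was close to absent from stem FAPs. Tenocytes held 25.3 CPM (6.90 to 64.9) at day 2, from 4 UMIs, and 121 (90.8 to 158) at day 7. Pro-remodeling FAPs went from 9.69 CPM (6.71 to 13.5) to 48.6 (43.1 to 54.5) and adipogenic FAPs from 11.2 (3.06 to 28.8) to 24.3 (17.4 to 33.1). Stem FAPs had 0 UMIs at day 2 and 1 UMI at day 7, a ratio to pro-remodeling FAPs of 0.0336 (8.47e-04 to 0.189) at day 7. Tenocytes lay 2.49-fold (1.83 to 3.34) above pro-remodeling FAPs at day 7. Myogenic cells had Wisp1 as well, with 45.3 CPM (31.3 to 63.2) in MuSCs and 33.5 (26.7 to 41.5) in myoblasts and progenitors at day 7. MuSCs and pro-remodeling FAPs did not differ beyond counting error at day 7, with a ratio of 0.932 (0.633 to 1.33).

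Wisp2, the family member that lacks the C-terminal domain, had its highest level at day 7 in adipogenic FAPs. Adipogenic FAPs went from 30.9 CPM (15.4 to 55.3) to 192 (171 to 214), and stem FAPs from 8.66 (4.32 to 15.5) to 66.9 (48.0 to 90.7). Pro-remodeling FAPs went from 17.4 CPM (13.3 to 22.3) to 12.4 (9.71 to 15.6), below the 17.5 CPM of free RNA in the day 7 library. At day 2 adipogenic FAPs did not differ from pro-remodeling FAPs beyond counting error, with a ratio of 1.78 (0.843 to 3.41). On that day tenocytes held 57.0 CPM from 9 UMIs, 6 of them in 1 cell and 19.4 CPM without it, and 60.4% of all Wisp2 UMIs were in pro-remodeling FAPs. The log2 ratio of pro-remodeling FAPs between the days, -0.49, had an interval that held 0 (-0.999 to 0.026). At day 7 adipogenic FAPs stood 15.5-fold (11.97 to 20.3) and stem FAPs 5.40-fold (3.59 to 8.02) above pro-remodeling FAPs. The adipogenic sum was uneven, with its 316 UMIs in 52 of 232 cells and 48 of them in 1 cell, and without that cell it was 165 CPM. Taken as a mean over cells it was 104 CPM. The day 2 levels of Wisp2 rest on 11 UMIs each in stem and adipogenic FAPs, and in stem FAPs 1 cell held 9 of them. Without the cell with the most Wisp2 in each library, the log2 ratio of stem FAPs was 5.08 in place of 2.95.

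**Figure D4:**
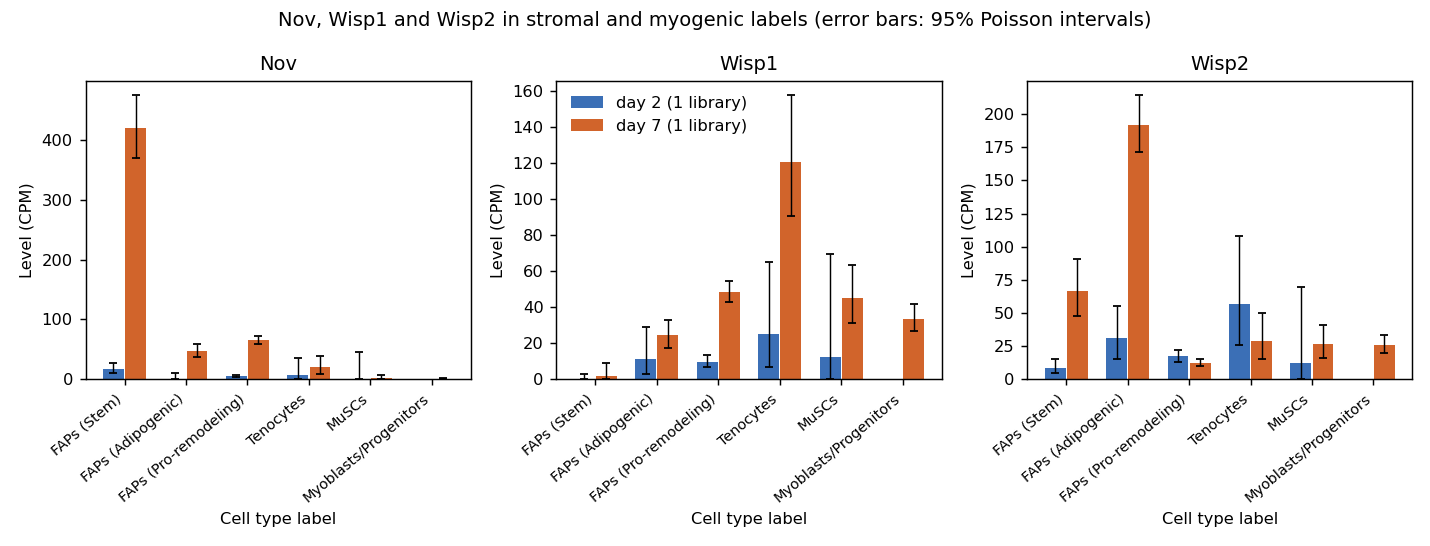
Level in CPM of Nov, Wisp1 and Wisp2 in FAP, tenocyte and myogenic labels at day 2 and day 7, with 95% Poisson intervals and 1 library per day. Myoblasts and progenitors at day 2 (1 cell) are left out. At day 7 Nov is highest in stem FAPs, Wisp1 in tenocytes and Wisp2 in adipogenic FAPs.

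FAPs were checked against other cell types. The FAP markers Pdgfra, Dcn, Col1a1, Lum and Pi16 summed to 4441 to 8968 CPM over the FAP labels at day 2 and to 33271 to 40995 at day 7, with none of them at 0. Endothelial markers summed to at most 47.3 CPM there. Smooth muscle markers went from 10.2 to 35.9 CPM in stem, from 22.5 to 108 in adipogenic and from 67.9 to 108 in pro-remodeling FAPs. The tenocyte markers Tnmd, Scx, Fmod, Thbs4 and Kera went from 153 to 1287 CPM in pro-remodeling, from 362 to 822 in adipogenic and from 2.36 to 235 in stem FAPs, against 22172 and 15508 CPM in tenocytes. Tenocytes in turn held the FAP markers at 11957 CPM at day 2 and 28009 at day 7, the latter above their own markers. Myofiber markers summed to between 6.30 and 8.42 CPM in the FAP labels at day 2 and between 307 and 421 at day 7. In adipogenic FAPs neutrophil markers went from 904 to 1.21 CPM and monocyte and macrophage markers from 413 to 126. The latter went from 85.9 to 108 in stem and from 98.4 to 102 in pro-remodeling FAPs. The part of these transcripts in the levels was not tested. In the 56 and 322 FAPs with 0 endothelial and 0 smooth muscle marker UMIs, Ctgf went from 116 CPM (96.8 to 138) to 153 (138 to 169), and Nov from 12.7 (6.94 to 21.3) to 126 (113 to 141). In these cells Wisp2 of adipogenic FAPs went from 39.8 CPM (14.6 to 86.5) to 77.9 (58.0 to 102), with 0.97 in place of 2.64 as the log2 ratio. The log2 ratio of Cyr61 was 0.23 in place of 0.85 in stem and 0.27 in place of 0.68 in adipogenic FAPs of this kind, and that of Ctgf in adipogenic FAPs was -1.77 in place of -1.14. At day 2 this kind held 15 stem, 18 adipogenic and 23 pro-remodeling FAPs, and 48, 119 and 155 at day 7. The adipogenic ones went from 391 CPM (298 to 504) of Ctgf, from 59 UMIs, to 115 (90.1 to 144). No value without the top cell was computed for them. FAPs of this kind had medians of 17511.5 and 6651 UMIs, against 24329 and 8429 in all FAPs. Wisp2 over all such FAPs was at 30.9 CPM (24.3 to 38.7) at day 7, against 52.8 in all FAPs. The log2 ratio of Ctgf in stem FAPs was 2.95 in place of 2.28, with a day 2 level of 10.4 CPM from 4 UMIs, and that of Wisp1 in pro-remodeling FAPs was 3.29 in place of 2.32, with 3.52 CPM from 2 UMIs at day 2. At day 7 such stem FAPs held Ctgf at 80.6 CPM (52.6 to 118) against 145 in all stem FAPs, and Wisp2 at 34.1 (17.0 to 61.0) against 66.9. Cyr61 was at 294 (238 to 360) against 422 there, and Nov at 483 (411 to 566) against 421. Wisp1 of these adipogenic FAPs was at 19.9 CPM on both days, from 3 and 13 UMIs. In pro-remodeling FAPs Wisp2 turned direction, with 0.76 in place of -0.49, also from 3 and 13 UMIs.

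Myogenic cells held UMIs of Cyr61, Wisp1 and Wisp2 at day 7. In MuSCs, the stem cells of muscle, Cyr61 was at 457 CPM (410 to 508), and in myoblasts and progenitors at 181 (165 to 199), a ratio of 2.52 (2.18 to 2.90). In these 2 labels the immediate early and dissociation genes described below summed to 19198 and 7904 CPM, and myofiber markers to 664 and 81651. Their part in the ratio was not tested. Wisp2 was at 26.6 CPM (16.3 to 41.1) and 25.8 (19.9 to 33.0) in the same labels, a ratio of 1.03 (0.591 to 1.73). In the 73 MuSCs that held myogenic marker UMIs but none of endothelial markers or of the FAP markers other than Col1a1, Wisp2 was at 14.5 CPM (4.72 to 33.9), from 5 UMIs, Wisp1 at 46.5 (26.6 to 75.6) and Cyr61 at 378 (316 to 449). Nov had 2 UMIs in all 312 myogenic cells. In the 172 of these cells that met the same conditions, Cyr61 was at 205 CPM (182 to 230), Wisp1 at 44.1 (33.8 to 56.5) and Wisp2 at 22.1 (15.0 to 31.3). Their levels over all 312 cells were 245 (229 to 263), 36.2 (29.95 to 43.4) and 26.0 (20.7 to 32.2) CPM. Free RNA of the day 7 library held Cyr61 at 239.6 CPM (226 to 254), Wisp1 at 6.24 (4.24 to 8.86) and Wisp2 at 17.5 (14.03 to 21.6). The Cyr61 level of myoblasts and progenitors and of the 172 restricted cells lay below that of free RNA, that of all 312 cells lay within its interval, and Wisp2 in the restricted MuSCs did not exceed it. Monocytes and macrophages of that library held Cyr61 at 5.98 CPM, Wisp1 at 0.133 and Wisp2 at 0.399. The part of free RNA in the myogenic values was not tested. At day 2 the myogenic class had 22 cells with 12 UMIs of Cyr61 and 1 UMI each of Ctgf, Wisp1 and Wisp2, and its MuSC label held erythroid markers at 27916 CPM. No change is read from it.

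Cells labelled T cells also showed Cyr61, with 253 CPM (197 to 320.5) at day 2 against 52.3 (41.8 to 64.6) later. At day 2 the label's own T and NK markers summed to 253 CPM, with Klrb1c and Ncr1 at 0, below the 892 CPM of endothelial, 433 of myogenic and 407 of smooth muscle markers, which goes against its name. At day 7 the T and NK markers summed to 1340.25 CPM and the endothelial markers to 1025. Of the Cyr61 UMIs of the label, 67 of 69 at day 2 were in the 20 of 50 T cells that held endothelial marker UMIs, and 71 of 85 at day 7 in 83 of 293. T cells without endothelial marker UMIs were at 20.01 CPM (2.42 to 72.3) and 16.5 (9.03 to 27.7).

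Over 41 profiles, each a label with at least 20 cells in 1 library, levels as log2(CPM + 1) were correlated between genes as a description. The profiles come from the same 2 libraries, and most immune labels share values near 0. Ctgf and Cyr61 had a Pearson correlation of 0.917, Wisp1 and Wisp2 of 0.827, Nov and Wisp2 of 0.725, and the other pairs lay between 0.462 and 0.650. Among 12450 genes, Cyr61 was most like Amotl2 (0.941), a YAP and TAZ target, Nckap1 (0.940) and Zcchc14 (0.9395). Ctgf was most like Fkbp10 (0.919), a collagen chaperone, Dpysl3 (0.914) and Csgalnact1 (0.911), an enzyme of chondroitin sulfate synthesis. Nov came with Pcsk6 (0.916), a proprotein convertase, Kcp (0.905) and Omd (0.888), and Wisp1 with Gli2 (0.891), a hedgehog pathway factor, and Ptk7 (0.887). For Wisp2 they were En1 (0.916), Prelp (0.915) and Prrx2 (0.915). With at least 50 cells per label (29 profiles) Cyr61 was most like Syde1 instead, and by Spearman correlation most like Amotl1, and neither setting shared any of the 3 genes named for Cyr61.

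The CCN receptors, mainly integrins, were counted in each class, and differences between the classes were not tested. In FAPs 3 of 12 measured receptor genes were past 2-fold higher at day 7 and 2 lower, with a median log2 ratio of 0.27 beside 0.21 over all genes, and these counts were near the 25.6% of all genes that were as high and the 14% as low. Itgb3 and Itgb5, partners of the alpha v integrin chain, had log2 ratios of 1.99 (1.42 to 2.61) and 1.71 (1.55 to 1.88), and the laminin receptor chain Itga6 1.85 (0.67 to 3.25). Itgav, the alpha v chain itself, had -0.35 (-0.51 to -0.19). Sdc4, a heparan sulfate proteoglycan, went from 483 to 89.6 CPM, a log2 ratio of -2.43 (-2.55 to -2.31), and the leukocyte integrin Itgam had -2.91 (-4.23 to -1.79). In endothelial cells, where 14.9% of all genes were past 2-fold higher and 9.5% lower, 4 of 11 receptor genes were lower and 0 higher, among them Itgav with -1.43 (-2.26 to -0.66) and Itgb3 with -3.28 (-6.39 to -1.29), the latter from 28 and 2 UMIs. In smooth muscle cells, where the shares over all genes were 14.1% higher and 7.86% lower, 3 of 12 were lower and 0 higher. The medians of the list were -0.22 in endothelial and -0.06 in smooth muscle cells, beside 0.06 and 0.10 over all genes.

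Among the YAP, TEAD and SRF regulators the genes for the coactivators themselves stayed within 2-fold. In FAPs Yap1 had a log2 ratio of -0.58 (-0.80 to -0.35) and Wwtr1, which encodes TAZ, 0.52 (0.37 to 0.66). In endothelial cells Yap1 was at -0.95 (-1.40 to -0.51), Wwtr1 at 0.25 (0.10 to 0.39) and Tead1 at -0.96 (-1.42 to -0.51). Srf, the serum response factor that drives immediate early genes, was lower at day 7 in both, with -1.12 (-1.41 to -0.83) in FAPs and -1.20 (-1.56 to -0.85) in endothelial cells. In FAPs 2 of 14 regulators were past 2-fold higher, Tead2 with 1.35 (0.68 to 2.08) and Mkl2 with 1.29 (0.83 to 1.78), and 2 lower, Srf and Vgll3 with -1.67 (-1.90 to -1.44). Of all genes in FAPs 25.6% were as high and 14% as low. In endothelial cells it was 0 higher and 1 lower of 13, where 14.9% and 9.5% of all genes were, and in smooth muscle cells 0 of 14 in either direction, beside 14.1% and 7.86%. The medians were 0.09 in FAPs, -0.22 in endothelial and -0.16 in smooth muscle cells.

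The other YAP and TAZ targets were counted in each class, and differences between the classes were not tested. In endothelial cells 5 of 13 measured targets were past 2-fold lower at day 7 and 2 higher, with a median log2 ratio of -0.63 beside 0.06 over all genes, 9.5% of which were as low and 14.9% as high. With at least 100 counts per gene, 2 targets were lower and 1 higher. The share over all genes was not computed at that minimum, so nothing is read from these 2 counts. Ankrd1, which encodes the cardiac ankyrin repeat protein, had 123 UMIs at day 2 against 0 later, at least 28.4-fold lower. Ajuba had a log2 ratio of -2.53 (-4.04 to -1.30) and Nuak2 of -1.23 (-2.08 to -0.45). Amotl2 was at -0.63 in endothelial cells and at -0.02 (-0.21 to 0.17) in FAPs. Igfbp3 and Tgfb2 were higher, with 1.20 (1.05 to 1.35) and 1.31 (0.30 to 2.37). In FAPs 6 of 17 were past 2-fold higher and 0 lower, with a median of 0.16 below the 0.21 of all genes, of which 25.6% were as high and 14% as low. Ccdc80, a matrix protein, went from 55.5 to 711 CPM, a log2 ratio of 3.68 (3.51 to 3.85), Ajuba was at 1.503 (0.37 to 2.82) and Ptpn14 at 1.41 (0.73 to 2.15). In smooth muscle cells 2 of 18 were higher and 2 lower, where 14.1% and 7.86% of all genes were, with a median of -0.49 beside 0.10, and Ankrd1 was the lowest, with -3.87 (-5.33 to -2.71).

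**Figure D5:**
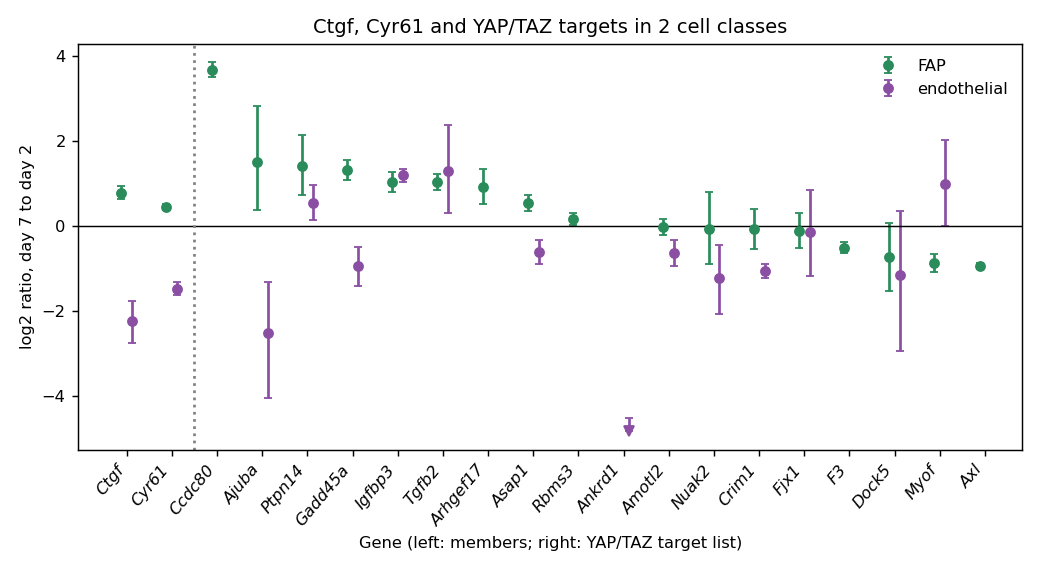
Log2 ratio of day 7 to day 2 (y axis) in FAPs and endothelial cells for Ctgf, Cyr61 and the YAP and TAZ targets with at least 20 UMIs over both libraries, with 95% counting intervals. The triangle for Ankrd1 marks a bound, since it had 0 UMIs in endothelial cells at day 7. Ctgf and Cyr61 lie above 0 in FAPs and below 0 in endothelial cells.

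The TGF-beta genes, a list of ligands, receptors, SMAD factors and targets of the pathway that induces Ctgf, and the immediate early genes were read the same way. In FAPs 4 of 13 TGF-beta genes were past 2-fold higher and 2 lower, near the 25.6% and 14% of all genes, with a median of 0.38. Tgfb3, a ligand, had a log2 ratio of 3.41 (2.89 to 3.97), Tgfbi of 1.63 (1.45 to 1.81) and the receptor gene Tgfbr2 of 1.30 (1.16 to 1.43). The target gene Smad7 was lower, with -2.15 (-2.30 to -1.99). In endothelial cells 2 of 11 were higher and 2 lower (14.9% and 9.5% of all genes), as were 2 and 2 of 13 in smooth muscle cells (14.1% and 7.86%), with medians of -0.06 and -0.12. Of 4 Wnt response genes measured in FAPs, Axin2 went from 0 to 32 UMIs, at least 6.72-fold higher, and Znrf3 had -1.10 (-1.89 to -0.32). In endothelial cells 0 of the 9 listed Wnt response genes had enough counts, and in smooth muscle cells 1 of 3 was higher.

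The immediate early and dissociation genes respond to handling of the tissue as well as to signals, and their summed level differed in the same direction as that of Cyr61 in these 3 classes. They summed to 20622 CPM at day 2 and 10987 at day 7 in endothelial cells, to 19684 and 10530 in smooth muscle cells, and to 9674 and 12038.5 in FAPs. Of 16 genes, 5 were past 2-fold lower and 0 higher in endothelial cells, where 9.5% and 14.9% of all genes were, among them Fosb with a log2 ratio of -1.84 (-1.97 to -1.70), Hspa1b with -1.57 (-1.64 to -1.50) and Hspa1a with -1.36 (-1.41 to -1.31). Smooth muscle cells had 5 lower and 0 higher too, beside 7.86% and 14.1% of all genes, and the medians were -0.60 and -0.58. In FAPs 5 were higher and 2 lower, near the 25.6% and 14% of all genes, with a median of 0.34, Atf3 at 1.65 (1.503 to 1.81), Jund at 1.398 (1.31 to 1.48), Egr1 at 1.27 (1.21 to 1.32) and Ier3 at -2.26 (-2.33 to -2.19). The part of dissociation in the Cyr61 and Ctgf levels was not tested.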

How the data were processed

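Whole-number UMI counts per gene and called barcode were taken as the authors deposited them (Cell Ranger 3.0.1 per the file headers, 3.1.0 per the submitters' processing notes, mm10), together with estimated counts from which the authors had removed ambient RNA with SoupX, and their cell type label per barcode, set on a larger integrated collection after removal of doublets. No doublet caller was run here. Labelled barcodes with at least 750 genes, 1000 transcripts and at most 30% mitochondrial transcripts in the SoupX values were kept, which removed 316 of 3494 and 189 of 3385. Uncorrected counts were summed per label and per 12 classes of labels. With 1 library per day no test was run. Levels have exact Poisson, shares exact Clopper-Pearson and ratios exact conditional binomial intervals (95%). Genes with at least 20 counts over both libraries were compared at 2-fold, with a floor of 3 counts for a count of 0. Thinning drew 2000 UMIs per cell at random, separately for co-detection. Correlation profiles needed at least 20 cells and their genes at least 100 counts. The text names the 5 genes, Wisp3, per list and class up to 3 genes with the largest and 3 with the smallest ratio past 2-fold, and the 3 most correlated genes per member. Some genes that the rule would name are not reported here. Yap1, Wwtr1, Tead1, Itgav, the target Amotl2, Syde1 and Amotl1 were named beyond this rule after their values were seen. The members, lists and markers were chosen with earlier results of these data known. Alternatives were SoupX values, other limits on cells, means over cells, median-of-ratios scaling, thinning, higher minimums and rank correlation. The interval code was tested on simulated counts. Python 3.11.15, numpy 2.4.6, scipy 1.17.1 and pandas 2.3.3 were used.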

Additional observations from a re-analysis of the deposited data

Results flagged for a closer look

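The day 7 to day 2 difference ran in opposite directions in different cells of the same libraries, and with 1 library per day the difference between those directions was not tested. Ctgf had a log2 ratio of 0.78 in FAPs, -2.24 in endothelial cells and -0.97 in smooth muscle cells. Cyr61 had 0.45 in FAPs, -1.47 in endothelial cells and -1.08 in smooth muscle cells. Within FAPs, Ctgf had 2.28 in the stem label and -1.14 in the adipogenic label, and the latter was -0.60 without the cell with the most Ctgf UMIs in each library.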

How the results depend on the processing

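No paired analysis was possible because each day had 1 library. The 9 class ratios kept their sign in all 61 alternatives. Scaled by median of ratios, FAP ratios were 0.55 for Ctgf and 0.22 for Cyr61 and the smooth muscle Cyr61 ratio was -1.25. As a mean over cells they were 0.54 and 0.34 in FAPs and -1.69 for endothelial Cyr61. The alternatives added after seeing the data gave 0.40 for Ctgf in FAPs with 0 endothelial and smooth muscle marker UMIs, and -1.66 for Cyr61 in endothelial cells with 0 smooth muscle marker UMIs. Mean-over-cells levels at day 7 were 938 CPM for Cyr61 in tenocytes, 41.8 for Wisp1 in pro-remodeling FAPs, 104 for Wisp2 in adipogenic FAPs and 356 for Cyr61 in MuSCs. Thinned to 2000 UMIs, shares of FAPs were 47.9% and 37.1% with Cyr61 and 11.7% and 17.96% with Ctgf, the share of stem FAPs with Nov was 59.5%, and co-detection was 60.9% and 46.1%. With at least 2 UMIs the shares were 79.5% and 43.4% (Cyr61), 29.8% and 26.5% (Ctgf) and 65.4% (Nov). Spearman correlations were 0.84 (Ctgf, Fkbp10), 0.88 (Cyr61, Amotl2), 0.70 (Nov, Pcsk6), 0.84 (Wisp1, Gli2) and 0.75 (Wisp2, En1), and the 3 genes then most similar shared at most 1 with the 3 by Pearson correlation for each member. With at least 100 counts per gene, 1 YAP and TAZ target was past 2-fold higher and 2 lower in endothelial cells, and the share over all genes was not computed at that minimum. Low counts widen the intervals of Nov, Wisp1 and Wisp2 at day 2, with 55, 46 and 101 UMIs, and of the day 2 myogenic class with 22 cells. With SoupX values the class ratios, the ratios of single labels and the 9 levels recomputed stayed within their counting intervals, and among the list counts the endothelial YAP and TAZ targets past 2-fold higher went from 2 to 3 and the smooth muscle immediate early genes past 2-fold lower from 5 to 7. Shares, co-detection and correlations were not recomputed with them. SoupX had removed between 0.49% and 2.63% of the UMIs of each of the 5 genes in called barcodes, so their values could move little. Of 118 alternatives for 17 ratios of single labels, 116 kept the sign, the exceptions being Wisp1 in adipogenic and Wisp2 in pro-remodeling FAPs with 0 endothelial and smooth muscle marker UMIs. The cause of the shifts was not tested.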
